A study of Mus musculus with 4 samples.

Results

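Among 31290 liver cells sequenced from mice fed normal chow or fat-rich food, in 1 group with Jiangtang Qingre Formula (JQF) added, 93 were macrophages that carried Cxcl9 transcripts and had no UMI of Timd4, Spp1 or Gpnmb. UMIs are unique molecular identifiers, 1 per captured transcript, and the members were chosen on raw UMIs. A cell had to show at least 10 UMIs of the complement genes C1qa, C1qb and C1qc together and at least 2 of Cxcl9. It also had to have 0 UMIs of Timd4, Spp1, Gpnmb, the Cd3 genes and the Cd79 genes, and at most 2 of the endothelial genes Ptprb and Stab2. Cxcl9 and the other genes of this rule are therefore given below as a description, as are Gbp2, Serpina3g, Iigp1, Il1rn and Procr, which came with the name of the population.

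The livers came from male C57BL/6J mice, with 1 library for the NCD group (normal chow, distilled water by mouth), 2 for the HFD group (60% high-fat diet, distilled water by mouth) and 1 for the JQF group (the same high-fat diet, then a formula of several herbs by mouth). The mice were bought as juveniles and the fat-rich food was given for months before treatment. No genetic change is given for any group. GEO's labels call the material hematopoietic stem cells and immune cells, whereas the libraries held endothelial cells, lymphocytes and macrophages. NCD and JQF had no replicate, and the protocol likewise gives n as 1, 2 and 1 for NCD, HFD and JQF. The kept cells carried 67615639 to 108062769 UMIs per library with a median of 7608 to 13081 per cell, and pairs of libraries shared 12 to 27 cell barcodes.

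Cxcl9 is a chemokine that macrophages and endothelial cells make in response to interferon-gamma, and it draws in T and NK cells that carry the receptor Cxcr3. Interferon-gamma acts through its receptor and the kinases Jak1 and Jak2, which leads to the induction of Irf1, the guanylate-binding proteins (GBPs), the immunity-related GTPases (IRGs) and the machinery of antigen presentation. In the liver, macrophages include resident Kupffer cells, which carry Clec4f and Vsig4, and cells recruited from blood monocytes, which carry Ccr2 or Cx3cr1.

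The members were 4 of 101 macrophages in NCD and 6 of 287 in JQF. In HFD replicates 1 and 2 they were 10 of 408 and 73 of 1569. Macrophages here are kept cells with at least 10 C1q UMIs, none of the Cd3 or Cd79 genes and at most 2 of Ptprb and Stab2. The shares were 3.96% in NCD (exact Clopper-Pearson 95% interval 1.09 to 9.83%), 2.45% in HFD replicate 1 (1.18 to 4.46%), 4.65% in HFD replicate 2 (3.66 to 5.81%) and 2.09% in JQF (0.771 to 4.49%). The HFD mean was 3.55% ± 1.56 (SD, n = 2). The NCD value lay between the HFD replicates, the JQF value lay under both, and the intervals of all 4 libraries overlapped. With 1 library against 2, an exact permutation test cannot give a p under 0.33, so no difference between conditions could be shown. As a share of all kept cells the members were 0.0669% of NCD, 0.153% of HFD replicate 1, 0.712% of HFD replicate 2 and 0.0703% of JQF. By this measure HFD replicate 2 stood apart from every other library, and it held 73 of the 93 members. The measure also reflects the share of macrophages among kept cells. That share was 1.69% in NCD, 6.26% and 15.3% in HFD replicates 1 and 2 and 3.36% in JQF. All intervals cover counting error only.

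**Figure D1:**
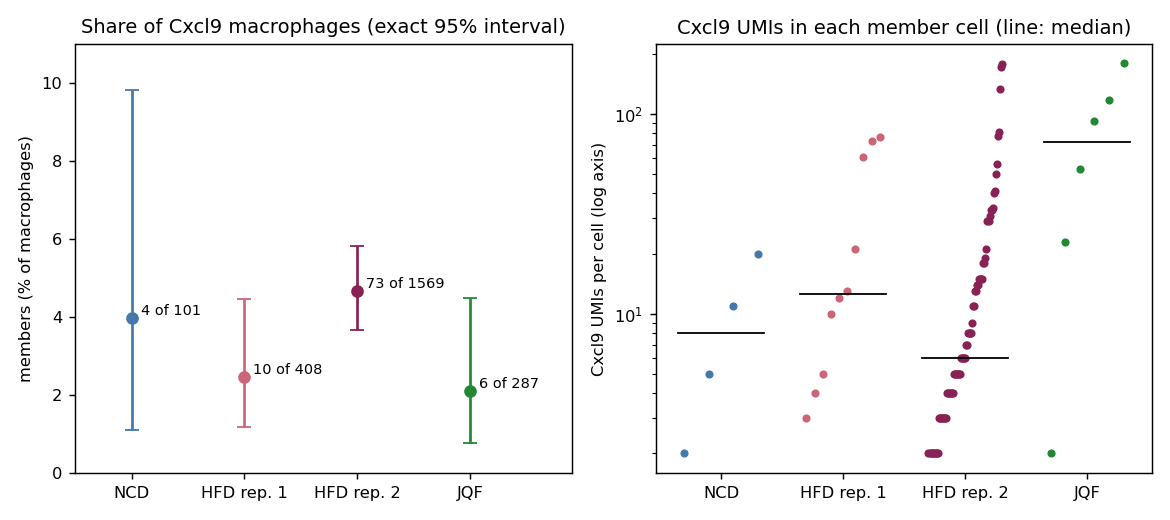
Left, members as a percent of macrophages in each library, with exact 95% intervals and counts. Right, Cxcl9 UMIs in each of the 93 member cells on a log axis, sorted within the library, with the median as a line. The intervals overlap in all 4 libraries, and the Cxcl9 median is 72.5 UMIs in JQF against 6 to 12.5 in the others.

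Most Cxcl9-positive cells in these livers were not members. Over all cell types 3657 cells had at least 2 Cxcl9 UMIs, and 298 of these were macrophages. Of the 298, 77 carried Timd4 and 128 carried Spp1 or Gpnmb. The macrophages with at least 2 Cxcl9 UMIs, whatever else they carried, came to 23.8% of NCD macrophages, 7.84% and 13.9% of those in HFD replicates 1 and 2, and 8.36% of JQF macrophages. In NCD 19 of those 24 cells were Timd4-positive, whereas in HFD replicate 1 none of 32 was and 22 carried Spp1 or Gpnmb.

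The amount of Cxcl9 differed widely from cell to cell. It ran from 2 to 20 UMIs with a median of 8 in the 4 NCD members. It ran from 3 to 77 with a median of 12.5 in HFD replicate 1. In HFD replicate 2 it ran from 2 to 178 with a median of 6, and in the 6 JQF members from 2 to 179 with a median of 72.5. The top cell held 52.6% of the members' Cxcl9 UMIs in NCD, 27.6% and 12.5% in HFD replicates 1 and 2, and 38.3% in JQF. The summed level was 502 CPM (UMIs scaled to a common total) in NCD, 2280 and 1595 CPM in HFD and 4508 CPM in JQF. JQF had the highest level and NCD the lowest, but each rested on 6 cells or fewer. At the threshold, 53 otherwise eligible cells had 1 Cxcl9 UMI and 12 members had 2. For the C1q sum, 5 cells with enough Cxcl9 stopped at 9 UMIs and 4 members had 10.

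Free RNA can put a few Cxcl9 UMIs into any droplet. T cells are not known as a source of Cxcl9. They were taken here as cells with at least 2 Cd3 UMIs and none of C1q, Ptprb or Stab2. Droplets with such macrophage or endothelial RNA were thus left out, so these shares can understate the free RNA. The median depth of the T cells was 6308 to 10489 UMIs. At least 2 Cxcl9 UMIs were found in 0% of NCD, 0.388% and 0.0752% of HFD and 1.22% of JQF T cells. For NCD, 0 of 490 T cells had them, where 3 cells would be 0.612% and the exact 95% upper bound is 0.750%. The same threshold was met by 20.0% of eligible macrophages in NCD (median depth 9080 UMIs), 6.85% in HFD replicate 1, 12.6% in HFD replicate 2 and 6.38% in JQF. After each cell was thinned to 5000 UMIs the shares were 27.3%, 7.69%, 10.2% and 6.76% in the same order, with 20 to 166 eligible cells per HFD or JQF library and 9 in NCD too shallow to be used. Endothelial cells carried Cxcl9 more often, in 42.9% of NCD cells and 19.4 to 25.2% of cells in the other libraries. Droplets of at most 100 UMIs held 212, 65.3, 148 and 90.0 CPM of Cxcl9 in NCD, HFD replicates 1 and 2 and JQF. Of the 93 members, 5 were at or under the level of their own library's droplets and 65 were at more than 3 times it.

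The 5 genes given with the name describe how the population was chosen and are no independent check of it. Over these genes (Il1rn, Gbp2, Iigp1, Serpina3g and Procr), 88 of 93 members had a UMI of at least 1 gene and 43 had UMIs of at least 3 genes. Of 692 macrophages with no Cxcl9 UMI, 80 had UMIs of at least 3. Thinned to 5000 UMIs per cell, 39.0% of 77 members and 4.63% of 497 Cxcl9-zero cells had at least 3 of these genes. Gbp2 was found in 75.3% of members, Il1rn in 58.1%, Serpina3g in 57.0%, Iigp1 in 34.4% and Procr in 28.0%. At 5000 UMIs per cell the shares were 61.0% for Gbp2 (22.9% of Cxcl9-zero cells), 42.9% for Serpina3g (9.26%) and 36.4% for Il1rn (23.3%). The least common marker was Procr, the endothelial protein C receptor.

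The members differed in the Kupffer cell and monocyte marks they carried. Of the 93, 33 had Clec4f without Ccr2 or Cx3cr1, 36 had Ccr2 or Cx3cr1 without Clec4f, 10 had both and 14 had neither. Among the Cxcl9-zero cells the counts were 291, 228, 105 and 68 of 692. Single UMIs can be free RNA. Among B cells with at least 2 Cd79 UMIs and none of C1q, Ptprb or Stab2, 0.412 to 10.4% per library had a Clec4f UMI. A UMI of Ccr2 or Cx3cr1 was found in 7.82 to 13.4% of them, at median depths of 4986 to 8075 UMIs. Because cells with C1q UMIs were left out, these shares can understate the free RNA of macrophages. Where 2 UMIs of these marks were needed, at most 0.434% and 8.46% of the B cells had them. The members then split into 33, 32, 4 and 24. The split differed by library, since Clec4f was seen in 39 of 73 members in HFD replicate 2, 3 of 10 in HFD replicate 1, 1 of 4 in NCD and 0 of 6 in JQF. The Clec4f-only members and the Ccr2 or Cx3cr1-only members both carried Gbp2, at 421 and 676 CPM, and Serpina3g, at 380 and 336 CPM. C3 was 103 CPM in the former and 427 CPM in the latter, Cd40 was 74.0 and 209 CPM, and Cxcl10 was 328 and 788 CPM. Il1rn went the other way, at 621 CPM in Clec4f-only and 274 CPM in Ccr2 or Cx3cr1-only members. All 6 JQF members were of the latter kind, and within HFD replicate 2 C3 was at 111 and 290 CPM, Cd40 at 60.6 and 184 CPM and Cxcl10 at 360 and 807 CPM. The median depth was 9132 UMIs in the former and 15246.5 in the latter, and no test was run on cells.

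The summed UMIs of the members were compared with those of the 692 macrophages of the same libraries that met every other part of the rule but had no Cxcl9 UMI. The main fit held 8 sums from 4 libraries, with the library as a block. Of 6193 genes tested, 6 passed a Benjamini-Hochberg adjusted p of 0.05 in edgeR's quasi-likelihood test, which is 0.0969% of the genes, and all 6 were higher in members. They were C3, Cd40, Slamf8 and Cxcl10, and the given markers Gbp2 and Serpina3g. The calls of these given markers describe how the population was chosen and are no independent support. No gene passed in the other direction, where 208 genes (3.36%) had an unadjusted p under 0.05 against 255 (4.12%) in the direction of members. DESeq2 called 34 genes, 2 of them lower in members.

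C3, the central complement protein, was at 396 CPM in NCD members, 351 and 185 CPM in HFD members and 917 CPM in JQF members. The Cxcl9-zero cells had 66.4, 23.1, 43.7 and 71.8 CPM in the same order, so the classes did not overlap. The rise was 3.07 on the log2 scale (SE 0.36, 8.42-fold, adjusted p = 0.00785 in edgeR). In JQF 76.8% of the members' C3 UMIs came from 1 cell, and in NCD 70% did. C3 (ENSMUSG00000024164) lies on chromosome 17 at 57203970 to 57228136 in GRCm38.

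Cd40, the receptor through which T cells license antigen-presenting cells, was at 172, 278, 109 and 241 CPM in NCD, HFD replicate 1, HFD replicate 2 and JQF members. In Cxcl9-zero cells it was at 53.1, 34.7, 39.2 and 45.4 CPM. Every member value lay above every Cxcl9-zero value, and the rise was 2.17 (SE 0.34, adjusted p = 0.0345 in edgeR). In edgeR the adjusted p was 0.184 without HFD replicate 1, 0.0558 without HFD replicate 2 and 0.116 without JQF, so the call needed each of these libraries. Cd40 (ENSMUSG00000017652) lies on chromosome 2 at 165055627 to 165072948.

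Slamf8, a surface receptor of the SLAM family found on myeloid cells, was at 132, 204, 206 and 309 CPM in members in that order of libraries. The Cxcl9-zero cells had 26.6, 53.2, 54.3 and 73.9 CPM. The rise was 2.04 (SE 0.27, adjusted p = 0.00821 in edgeR) and of like size in the 4 libraries. The call was lost without HFD replicate 1 (adjusted p = 0.0513) and without HFD replicate 2 (0.0864). Slamf8 (ENSMUSG00000053318) lies on chromosome 1 at 172581758 to 172590568.

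Cxcl10, a second Cxcr3 ligand that lies beside Cxcl9 on chromosome 5, was at 885, 490, 507 and 811 CPM in members. It was at 239, 140, 155 and 289 CPM in Cxcl9-zero cells. The rise was 1.72 (SE 0.22, adjusted p = 0.00785 in edgeR). Cxcl10 was thus common in the comparison cells too, with a UMI in 25.4% of them against 47.3% of members. Its call was lost when members needed 5 Cxcl9 UMIs, with an adjusted p of 0.315, and also without HFD replicate 1 (0.0513) or HFD replicate 2 (0.0558). In NCD 97.0% and in JQF 82.1% of the members' Cxcl10 UMIs came from 1 cell. Cxcl10 (ENSMUSG00000034855) lies on chromosome 5 at 92346638 to 92348889.

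Gbp2 and Serpina3g belong to the markers given with the population, so their values describe the choice. Gbp2, a GTPase that attacks the vacuoles of intracellular microbes, was at 317, 1046, 433 and 637 CPM in members and 66.4, 54.0, 98.2 and 50.6 CPM in Cxcl9-zero cells. Its log2 fold change was 3.15 (SE 0.39). Serpina3g, an intracellular protease inhibitor, was at 52.8, 703, 284 and 261 CPM against 13.3, 17.7, 45.1 and 6.33 CPM, and its log2 fold change was 4.08 (SE 0.53). In NCD the members had only 4 Serpina3g UMIs. Gbp2 lies on chromosome 3 at 142620602 to 142638008 and Serpina3g on chromosome 12 at 104236245 to 104241939. Serpina3g and the GBPs have near-identical neighbours, so reads may have been split among copies.

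**Figure D2:**
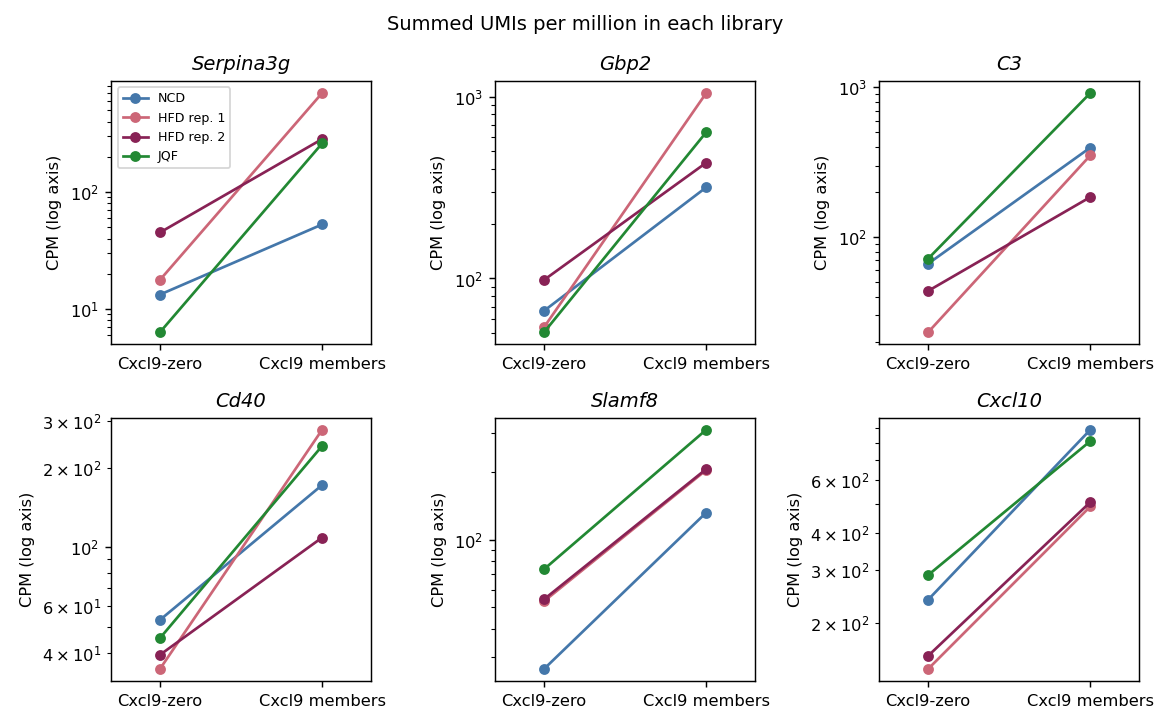
CPM of the 6 called genes on a log axis, from summed UMIs of the Cxcl9-zero macrophages (left points) and the members (right points) of each library, joined by lines. Every line goes up for all 6 genes, while the NCD and JQF members are 4 and 6 cells.

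The members were deeper than the comparison cells, with a median of 15850.5 against 3654 UMIs in NCD, 13180.5 against 8293 and 10393 against 7903.5 in HFD replicates 1 and 2, and 18147 against 8669.5 in JQF. With comparison cells drawn to match the depth of the members, 1995 genes could be tested and edgeR called none, with 86 at an unadjusted p under 0.05. The log2 fold changes there were 2.94 for Gbp2 (adjusted p = 0.0741), 2.77 for C3, 1.87 for Cd40, 1.52 for Slamf8 and 2.77 for Cxcl10. Of 8 dendritic cell genes, at least 1 was found in 51.6% of members and 33.1% of the shallower Cxcl9-zero cells. Their summed level was 489, 81.7, 129 and 125 CPM in members of NCD, HFD replicates 1 and 2 and JQF, and 46.5, 91.0, 74.0 and 179 CPM in Cxcl9-zero cells, so it was higher in members in NCD and HFD replicate 2 and lower in the others. None of the 8 was at 0 in members. Clec9a made up much of the sum in HFD members and less of it in those of NCD and JQF. It had a UMI in 33 members and 152 Cxcl9-zero cells. Clec9a was higher in members in all 4 libraries, at 79.3, 73.5, 77.4 and 38.6 CPM against 26.6, 35.5, 41.3 and 12.7 CPM. Its log2 fold change was 1.13 (adjusted p = 0.292 in edgeR), and no other gene of this list was tested. Ccr7 gave 31 UMIs in NCD, 96.8% of them from 1 cell. In all, 45 members had no UMI of these 8 genes. They were 37 in HFD replicate 2, 7 in HFD replicate 1, 1 in NCD and none in JQF. The NCD value there is thus that of a single cell. In these members C3 was 2.90 higher (adjusted p = 2.19e-04 in edgeR), Slamf8 1.87 (0.0958), Cd40 1.59 (0.284) and Cxcl10 0.95 (0.999). What part the dendritic cell genes had in these results was not tested. T and NK cell genes summed to at most 38.6 CPM in members and 52.5 CPM in Cxcl9-zero cells. Stellate cell genes reached at most 32.7 and 219 CPM. Endothelial genes were at 26.4, 49.0, 65.1 and 0 CPM in members of NCD, HFD replicates 1 and 2 and JQF. In Cxcl9-zero cells they were at 120, 18.5, 25.1 and 27.4 CPM. They were thus higher in members in both HFD libraries and lower in NCD and JQF. Hepatocyte genes reached 273 CPM in HFD replicate 2 members (173 CPM in Cxcl9-zero cells), neutrophil genes 291 CPM in NCD (66.4 CPM) and B or plasma cell genes 174 CPM in JQF (97.1 CPM). Ms4a1, Ly6g and Col1a1 were at 0 in members, and the part of these lists in the results was not tested.

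The sequence just upstream of these genes is printed to show the interferon-type motifs of genes that moved with Cxcl9. Of 10 genes looked up (Cxcl9, the 6 called genes, Il1rn, Procr and Iigp1), 8 had an entry in the RefSeq promoter table of GRCm38.p6. In the 250 bases before the start, 3 motifs were searched on both strands. The first was the gamma-activated site TTCNNNGAA. The second was the interferon-stimulated response element, bound by interferon regulatory factors, taken as GAAA, any 2 bases and GAAA (TTTC, any 2 bases and TTTC on the other strand). The third was a kappa-B site, taken as GGGA, any 2 bases and TTCC (GGAA, any 2 bases and TCCC on the other strand). Of 32851 promoters in the table, 7.02% held the first, 2.98% the second and 1.21% the third. The runs read from 5′ to 3′ on the strand of the gene and, but for Gbp2, end 1 base before its start, and capitals mark matches. Starts and distances here are those of RefSeq. For Gbp2 and Serpina3g they differ from the GENCODE M21 gene bounds given above. The Gbp2 run spans only 30 bases from 69 to 40 before the RefSeq start, and most of it, the match included, lies inside the gene as GENCODE draws it.
Cxcl9 (chr5:92328080-92328329, minus strand): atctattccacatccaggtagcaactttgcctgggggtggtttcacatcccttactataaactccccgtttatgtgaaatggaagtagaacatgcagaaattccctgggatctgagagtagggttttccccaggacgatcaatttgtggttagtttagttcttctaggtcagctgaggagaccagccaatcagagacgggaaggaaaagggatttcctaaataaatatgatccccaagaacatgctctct
Cxcl10 (chr5:92348890-92349139, minus strand): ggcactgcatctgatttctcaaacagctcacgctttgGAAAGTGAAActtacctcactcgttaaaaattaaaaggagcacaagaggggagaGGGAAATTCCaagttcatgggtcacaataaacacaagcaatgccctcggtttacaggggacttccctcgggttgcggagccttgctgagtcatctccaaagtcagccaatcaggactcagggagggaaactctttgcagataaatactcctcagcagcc
Slamf8 (chr1:172590569-172590818, minus strand): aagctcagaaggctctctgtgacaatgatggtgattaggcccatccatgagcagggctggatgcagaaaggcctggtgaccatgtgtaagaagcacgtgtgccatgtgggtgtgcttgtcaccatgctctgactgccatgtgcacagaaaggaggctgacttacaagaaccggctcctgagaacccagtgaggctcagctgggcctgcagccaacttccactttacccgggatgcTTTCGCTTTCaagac
Serpina3g (chr12:104235897-104236146, plus strand): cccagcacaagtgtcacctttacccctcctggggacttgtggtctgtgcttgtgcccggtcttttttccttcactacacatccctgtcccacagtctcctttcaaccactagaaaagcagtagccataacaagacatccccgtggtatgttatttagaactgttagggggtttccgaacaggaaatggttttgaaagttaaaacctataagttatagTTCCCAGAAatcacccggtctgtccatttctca
Gbp2 (chr3:142620594-142620623, plus strand): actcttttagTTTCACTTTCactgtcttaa
Cxcl10 held a response element 213 to 204 bases and a kappa-B match 159 to 150 bases before its start. Slamf8 held a response element 15 to 6 bases and Gbp2 one 59 to 50 bases before the RefSeq start. Serpina3g held a gamma-activated site 33 to 25 bases before its RefSeq start, which lies upstream of the GENCODE one. No motif overlapped another in these windows. Cxcl9, C3, Il1rn and Procr had none of these letters in their windows. Cd40 and Iigp1 were not in the table.

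Of 11 GBPs, which interferon-gamma induces, 9 were tested and only the given marker Gbp2 was called in the main edgeR fit. All 9, Gbp2 among them, had a positive log2 fold change with a median of 1.47, where the median of all genes was -0.03. Higher levels in all 4 libraries were seen for 6 of the 9, against 7.31% of all genes. Gbp5, which helps assemble inflammasomes, was at 132, 392, 151 and 183 CPM in NCD, HFD replicate 1, HFD replicate 2 and JQF members and at 53.1, 19.3, 54.3 and 38.0 CPM in Cxcl9-zero cells (log2 fold change 2.41, adjusted p = 0.101 in edgeR). Gbp4 differed by 2.30 (adjusted p = 0.0690), Gbp7 by 1.94 (0.270), Gbp3 by 1.47 (0.153) and Gbp8 by 0.78 (0.809). Gbp4 passed when members needed 5 Cxcl9 UMIs (0.0423) and among cells of at least 5000 UMIs (0.0480).

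Of 9 IRGs, which guard against vacuolar pathogens, 6 were tested with a median of 1.61. The given marker Iigp1 is among them, and 4 of the 6 were higher in all 4 libraries. Iigp1, a given marker, was at 26.4, 180, 186 and 425 CPM in members and 6.64, 40.9, 83.2 and 11.6 CPM in Cxcl9-zero cells. Its log2 fold change of 2.56 had an adjusted p of 0.166. Igtp differed by 2.04 (0.116), Ifi47 by 1.88 (0.230) and Irgm1 by 1.34 (0.273). In this edgeR fit Gbp2 was the only member of either GTPase family called, and all tested members of both had positive values.

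Interferon signalling genes were more mixed. Of 17 tested, 13 were positive, 4 were higher in all 4 libraries and the median was 0.41. Irf8, a myeloid transcription factor, differed by 1.21 (adjusted p = 0.242 in edgeR), Ciita, the switch of MHC class II genes, by 1.00 (0.425), Irf1 by 0.77 (0.583) and Jak1 by 0.41 (0.852). Irf1 was at 273 CPM in members and 300.2 CPM in Cxcl9-zero cells of HFD replicate 2, so it was not higher in every library.

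Genes best known as targets of type I interferon stood nearer to the background. Of 22 tested, 14 were positive, 3 were higher in all 4 libraries, and the median was 0.13. Isg15, a ubiquitin-like modifier, was at 172, 286, 78.5 and 154 CPM in members and 46.5, 77.9, 48.6 and 93.9 CPM in Cxcl9-zero cells, a log2 fold change of 1.23 (adjusted p = 0.249 in edgeR). Bst2 differed by 0.36 and Ifih1 by 0.60, which was -0.19 without cells that held dendritic cell UMIs. Rsad2 had a log2 fold change of 0.06 and Ifi27l2a one of -0.41. The direct difference between the GTPase families and the type I list was not tested.

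Of the antigen presentation genes none was called in the main edgeR fit. Of 18 MHC class I and proteasome genes 17 were positive with a median of 0.72, and 11 were higher in all 4 libraries. Psmb8, a subunit of the immunoproteasome, differed by 0.93 (adjusted p = 0.226 in edgeR) and Psme1, its activator, by 0.78 (0.352). Over 15 fits, the alternatives included, Psmb8 was called in 1. The classical heavy chain H2-K1 differed by 0.33, H2-D1 by 0.07 and B2m by 0.27, and without cells that held dendritic cell UMIs they had -0.25, -0.033 and -0.042. The 6 tested MHC class II genes had a median of 0.42, and 5 were higher in all 4 libraries. H2-Aa was at 4254, 5230, 5794 and 8562 CPM in members and 2518, 5111, 4589 and 5837 CPM in Cxcl9-zero cells, a log2 fold change of 0.41 (adjusted p = 0.645). Cd74 differed by 0.44, H2-Ab1 by 0.43 and H2-Eb1 by 0.40. Without cells that held dendritic cell UMIs these 4 had log2 fold changes of -0.23 for H2-Aa, -0.043 for Cd74, -0.0095 for H2-Ab1 and -0.16 for H2-Eb1, where the median of all genes was -0.13.

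Inflammatory and T cell regulatory genes were uneven. Of 11 genes of the interleukin-1 family and the inflammasome, 4 were higher in all 4 libraries with a median of 0.80. Il1rn, the receptor antagonist and a given marker, was at 436, 311 and 367 CPM in NCD and HFD members against 46.5, 159 and 199 CPM, but at 183 CPM against 317 CPM in JQF. Il1b differed by 1.05 (adjusted p = 0.503), Aim2 by 0.99 and Nlrp3 by 0.86. Il1b was at 3342 and 1119 CPM in NCD and HFD replicate 1 members against 684 and 249 CPM, but at 584 against 611 CPM in HFD replicate 2 and 705 against 759 CPM in JQF. In NCD 86.2% of the members' Il1b UMIs came from 1 cell. Of 14 chemokines only Cxcl10 was called in the main edgeR fit, and the median was 0.12. Cxcl2 differed by 0.22 and Ccl4 by 0.10, with opposite directions among libraries. Of 13 T cell regulatory genes, Cd40 was called and the median was 0.30. Cd274, the ligand PD-L1, was at 277, 221, 540 and 86.9 CPM in members against 79.7, 98.0, 330 and 114 CPM (log2 fold change 0.82, adjusted p = 0.513). Tnf differed by 0.93 and Cd86 by -0.45. Among 8 enzymes of macrophage effector function the median was 0.26. Hmox1, which breaks down heme, was at 502, 286, 559 and 57.9 CPM in members against 1176, 610, 713 and 697 CPM (log2 fold change -1.34, adjusted p = 0.292). Acod1, which makes itaconate, differed by 1.24, Sod2 by 0.67 and Cybb by 0.51.

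In the complement list only C3 was called in the main edgeR fit. Over 15 fits, the alternatives included, Cfb was called in 4. Cfb, which joins C3 in the alternative pathway, was at 159, 392, 146 and 86.9 CPM in members and 19.9, 52.5, 76.4 and 17.9 CPM in Cxcl9-zero cells (log2 fold change 2.09, adjusted p = 0.0893 in edgeR). Cfp, properdin, had a log2 fold change of -0.94 (0.352). The 7 tested genes had a median of -0.66, so C3 and Cfb stood against the rest of the list. In the serpin A3 cluster Serpina3f, a neighbour of Serpina3g, differed by 0.99 (adjusted p = 0.899).

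Kupffer cell genes were lower by value. Of 12 tested, none was called in the main edgeR fit. In all 4 libraries 4 of them were lower, against 11.8% of all genes, and the median was -0.83. Over 15 fits, the alternatives included, Slc40a1 was called in 2 and Clec4f and Cd5l in 1 each. Slc40a1, the iron exporter ferroportin, was at 79.3, 253, 616 and 28.96 CPM in members and 784, 777, 1178 and 326 CPM in Cxcl9-zero cells (log2 fold change -1.95, adjusted p = 0.101 in edgeR). Clec4f, a Kupffer cell lectin, was at 39.6, 376, 763 and 0 CPM against 392, 535, 1680 and 300 CPM (log2 fold change -1.69, adjusted p = 0.338). Cd5l had -1.11 (0.480), Vsig4 -0.79 (0.807) and Id3 -0.19, while Nr1h3 had 0.13. In 13 monocyte-derived genes none was called in the main edgeR fit and the median was 0.40. Plac8 and Ms4a4c were each called in 1 of 15 fits. Plac8 differed by 1.44 (0.588), Ms4a4c by 1.23 (0.377) and Ccr2 by 0.40, S100a4 by 0.36 and S100a6 by 0.15, whereas Lyz2 had -0.33. Plac8 was higher in members in NCD and HFD replicate 1 only, at 496 against 534 CPM in HFD replicate 2 and 212 against 238 CPM in JQF. In 13 lipid-associated genes the median was -0.20. Lpl differed by 0.68, Apoe by -0.22, Lgals3 by -0.24 and Ctsd, a lysosomal protease, by -0.95 (0.273).

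Of the proliferation genes 3 were tested and none was called in the main edgeR fit. The log2 fold changes were -2.12 for Mki67, -1.80 for Stmn1 and -1.47 for Top2a. In JQF Mki67 and Top2a went the other way, at 38.6 against 3.17 CPM and 9.65 against 7.39 CPM. These member values rest on 4 UMIs and 1 UMI. Mki67 was called in 1 of the 11 fits that tested it and Stmn1 in 1 of 10. The 10 heat shock and immediate early genes, which enzymatic digestion can induce, had a median of 0.29. None of them was called in the main edgeR fit. Among genes of at least 50 CPM the lowest log2 fold changes were -2.65 for Slpi, -2.12 for Mki67, -1.98 for Thbs1, -1.97 for Pf4 and -1.95 for Slc40a1. Slpi and Thbs1 came mainly from NCD Cxcl9-zero cells, at 4278 and 1189 CPM there and at most 315 CPM in any other sum. Mki67 and Pf4 were also highest in those cells, at 412 and 1442 CPM, against at most 69.4 and 171 CPM in any other sum.

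**Figure D3:**
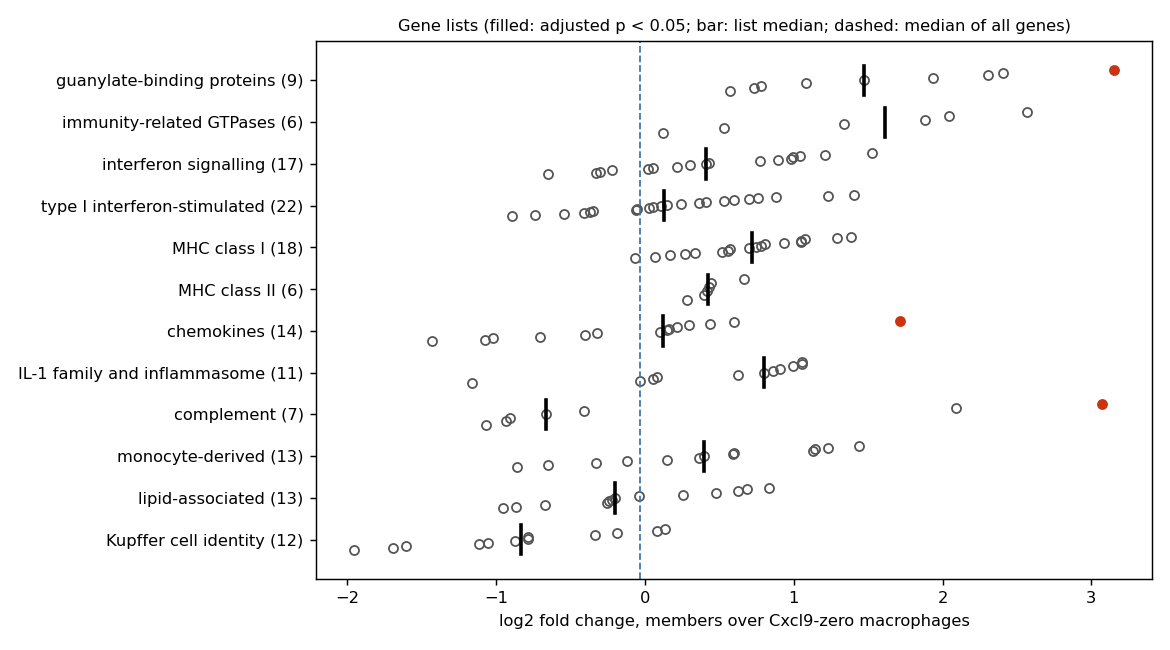
Log2 fold change of every tested gene of 12 lists, members over Cxcl9-zero macrophages, with the number tested in brackets. Filled points have an adjusted p under 0.05, bars are list medians (1.47 for GBPs, 1.61 for IRGs, -0.83 for Kupffer cell identity), and the dashed line is the median of all genes at -0.03.

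In HFD replicate 2, the only library with 20 members or more, the cells could be laid out by their Cxcl9 UMIs. Gbp2 was at 98.2 CPM in 462 cells with 0, 83.2 CPM in 43 cells with 1, 298 CPM in 25 cells with 2 to 4, 292 CPM in 29 cells with 5 to 17 and 849 CPM in 19 cells with 18 or more. Serpina3g was at 45.1, 43.5, 161, 242 and 503 CPM in the same order, and Slamf8 at 54.3, 51.0, 133, 201 and 301 CPM. For these 3 genes, cells with a single Cxcl9 UMI thus had about the levels of cells with none. Other genes did not climb with Cxcl9, since Iigp1 was at 83.2, 51.0, 365, 82.2 and 175 CPM and Gbp5 at 54.3, 43.5, 192, 135 and 135 CPM. C3 was at 43.7, 60.5, 90.2, 220 and 229 CPM. Cd40 was at 39.2, 37.8, 35.3 and 48.3 CPM in the first 4 ranges and 305 CPM in the last, so its difference in this library lay in the 19 cells with the most Cxcl9. A single cell held 39.2% of the members' Cd40 UMIs there. Clec4f was at 1680, 1612, 1443, 500 and 471 CPM and Slc40a1 at 1178, 1202, 1177, 350 and 467 CPM, which places their lower values in cells with 5 or more Cxcl9 UMIs. Ccr2 was at 206, 88.8, 122, 336 and 350.2 CPM. The cells in each range come from 1 library, so these values carry no test, and the median depth ranged from 7903.5 to 11199 UMIs.

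**Figure D4:**
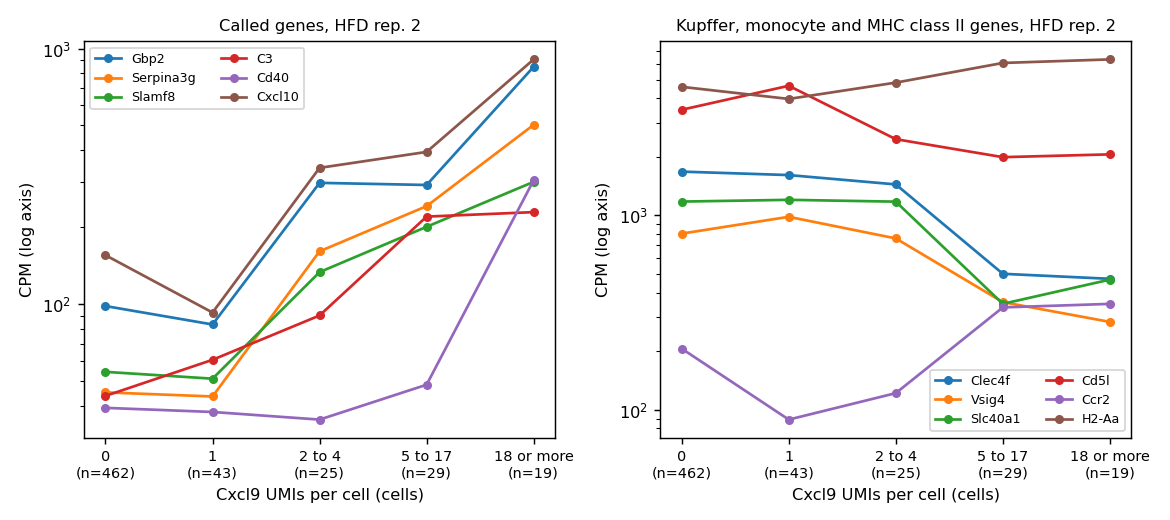
CPM on a log axis in HFD replicate 2, from summed UMIs of eligible macrophages grouped by their Cxcl9 UMIs, with the number of cells under each group. Left, Gbp2 runs from 98.2 to 849 CPM and Cd40 stays at 35.3 to 48.3 CPM until the last group. Right, Clec4f is at 1443 and 500 CPM in the groups with 2 to 4 and 5 to 17 UMIs.

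The macrophages that the rule left out could be set beside the members. Among Timd4-positive macrophages with at least 2 Cxcl9 UMIs, Gbp2 was at 816 CPM in NCD (19 cells), 705 CPM in HFD replicate 2 (50 cells) and 195 CPM in JQF (8 cells). Those with none had 80.4, 71.3 and 60.2 CPM. Serpina3g was at 655, 287 and 41.1 CPM against 33.5, 23.4 and 15.05 CPM. Among macrophages with Spp1 or Gpnmb, Gbp2 was at 394 and 565 CPM in HFD (22 and 95 cells) and 379 CPM in JQF (10 cells), against 63.6, 88.6 and 59.1 CPM. Higher Gbp2 and Serpina3g beside Cxcl9 were thus seen in all 3 macrophage classes, in every library with at least 5 such cells. C3 in Timd4-positive cells was at 181 against 33.5 CPM in NCD, 61.1 against 30.7 CPM in HFD replicate 2 and 20.5 against 17.2 CPM in JQF. In Spp1 or Gpnmb cells it was at 89.9 against 50.7 CPM and 155 against 91.1 CPM in HFD, and 739 against 99.4 CPM in JQF. The size of the C3 gap thus varied by library within both classes. Slamf8 was also higher beside Cxcl9 in both classes, at 173, 173 and 154 CPM against 26.8, 38.6 and 53.0 CPM in Timd4-positive cells of NCD, HFD replicate 2 and JQF, and at 205, 232 and 342 CPM against 95.9, 94.2 and 93.1 CPM in Spp1 or Gpnmb cells of HFD replicates 1 and 2 and JQF. Cd40 was at 183, 45.8 and 51.3 CPM against 38.8, 18.3 and 17.2 CPM in the Timd4-positive cells, and at 73.8, 68.8 and 95.8 CPM against 27.6, 30.9 and 51.6 CPM in the others. Cxcl10 was at 723 against 165 CPM in NCD and 254 against 55.8 CPM in HFD replicate 2 Timd4-positive cells, and at 463 against 57.6 CPM and 327 against 123 CPM in HFD Spp1 or Gpnmb cells. In JQF Cxcl10 was slightly lower beside Cxcl9 in Timd4-positive cells (103 against 109 CPM) and lower in Spp1 or Gpnmb cells (105 against 231 CPM). Higher Slamf8 and Cd40 beside Cxcl9 were thus seen in all 3 macrophage classes. The 8 JQF Timd4-positive cells with Cxcl9 gave only a few UMIs of Serpina3g, C3 and Cd40, so those values are rough. Differences between the classes were not tested. Clec4f in Timd4-positive cells with Cxcl9 was at 1703, 2333 and 2935 CPM in NCD, HFD replicate 2 and JQF, above every member value. Those without Cxcl9 had 2742, 4203 and 3166 CPM, so Clec4f was lower beside Cxcl9 there too. Slc40a1 and Vsig4 were also lower beside Cxcl9 in these libraries. Cd5l was lower in NCD and HFD replicate 2 but higher in JQF. In Spp1 or Gpnmb cells Clec4f was at 184 and 565 CPM against 148 and 551 CPM in HFD, and 59.3 against 210 CPM in JQF. Timd4 itself was used by the rule.

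**Figure D5:**
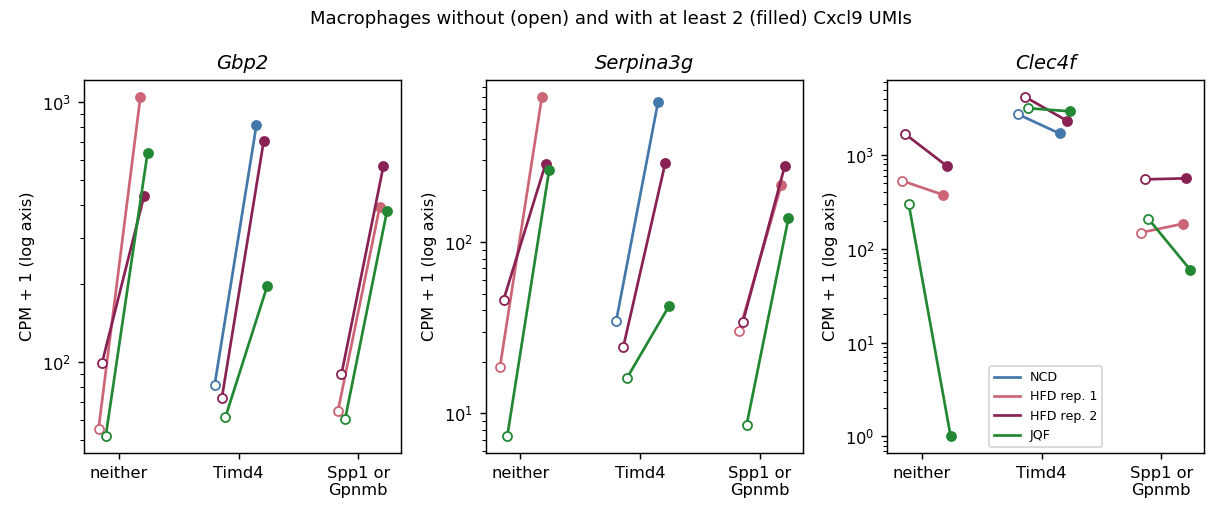
CPM plus 1 on a log axis for Gbp2, Serpina3g and Clec4f in macrophages with 0 (open) and at least 2 Cxcl9 UMIs (filled), by library, for cells with neither mark, with Timd4, and with Spp1 or Gpnmb; classes of under 5 cells are left out. Gbp2 and Serpina3g are higher in every filled point than in the open point it is joined to.

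Between the conditions, the members could be described but not tested, because NCD and JQF gave 4 and 6 cells against a minimum of 20. Gbp2 was at 317 CPM in NCD, 740 ± 433 CPM (SD, n = 2) in HFD and 637 CPM in JQF, so the HFD replicates spanned the JQF value. C3 was at 268 ± 118 CPM in HFD, with NCD and JQF both above. Clec4f, Vsig4 and Ccl24 had 0 UMIs in JQF members, Cd5l had 48.3 CPM there, and HFD members had 376 and 763 CPM of Clec4f and 833 and 2146 CPM of Cd5l. The floor of 3 UMIs in the JQF sum corresponds to 28.96 CPM. The Cxcl9-zero cells of JQF were likewise under both HFD libraries for 3 of these genes. Clec4f was at 300 against 535 and 1680 CPM there, Cd5l at 691 against 2028 and 3497 CPM and Ccl24 at 38.0 against 73.3 and 132 CPM. Vsig4 was at 238 CPM, between the HFD values of 158 and 806 CPM. Mmp12, a macrophage elastase, was at 0 CPM in NCD, 212 and 1504 CPM in HFD and 782 CPM in JQF members. In HFD replicate 1, 73.1% of the members' Mmp12 UMIs came from 1 cell. The Cxcl9-zero cells had 13.3, 274, 505 and 547 CPM in the same order, so NCD was lowest there too. The largest differences in favour of NCD and of JQF each came from 1 cell (Gm12703, with 59 UMIs in NCD, and Gm16685, with 50 UMIs in JQF). The values of these last genes therefore describe single cells.

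The cells that make and answer these signals were present in every library. Ifng was at 479 CPM in T cells of NCD, 263 and 308 CPM in HFD and 445 CPM in JQF. In NK cells it was at 712, 198, 250.2 and 407 CPM. The HFD replicates were the lowest for both cell types. Cxcr3 in T cells was at 40.4 CPM in NCD, 99.6 and 86.9 CPM in HFD and 84.0 CPM in JQF. With 1 NCD and 1 JQF library these levels have no test, and their relation to the members cannot be judged over 4 libraries.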

How the data were processed

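Droplet-based 3' single-cell libraries of 4 mouse liver suspensions were analysed. The deposited values are UMI counts per gene and barcode, made by the authors with Cell Ranger on mm10 and not normalized. The submitters' notes name Cell Ranger 6.0.1 and Seurat 4.0.3, and the file headers name Cell Ranger 7.0.0 (filtered) and 4 (unfiltered), so it is not settled whether introns were counted. Barcodes needed at least 500 genes and no more than 20% of UMIs from mitochondrial genes. Scrublet in scanpy 1.11.5 scored doublets. Its own threshold marked 0.0117 to 3.02% of cells, so removal at 0.8% per 1000 barcodes served as an alternative, and doublets were kept in the reported values, 9 members among them. No cell annotation by the authors was used.

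UMIs were summed per library and class and tested with edgeR 4.0.16 (TMM, filterByExpr, quasi-likelihood, library as a block, 3 residual degrees of freedom) in R 4.3.3. Benjamini-Hochberg adjustment ran over all genes tested, and DESeq2 1.42.0 was an alternative. The planned fit asked for at least 20 members per library, which only HFD replicate 2 met, so the fit over all 4 libraries was added after the counts were seen. Genes of the rule were left out of the adjustment and the counts. SE is the log2 fold change over the root of F. The libraries are the replicates. With the library as a block, p-values measure how far the difference between the classes varied over the 4 libraries. That spread may be partly technical, and it includes any difference between the groups. The members and gene lists were chosen with earlier results of these data known. Named genes are the called ones, the 5 lowest, and up to 6 per list of highest level in members, plus, for conditions, the largest differences at a pseudocount of 10 CPM. The fit was tested on simulated counts. Gene coordinates are those of GENCODE M21 (GRCm38), and promoters those of RefSeq (GRCm38.p6). Alternatives varied the Cxcl9 and C1q minimum, depth, doublets, filters, scaling, the block and each library. 1 gene of the interferon signalling list is not reported here.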

Additional observations from a re-analysis of the deposited data

Results flagged for a closer look

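Among the genes named, 12 results stood out because the members lay above the Cxcl9-zero cells in both HFD libraries and below them in NCD or JQF, or the reverse, with exact Poisson 95% intervals of the paired sums that did not overlap in any of the libraries. Of 146 such comparisons over 73 genes looked at, most of them chosen for high levels, this is 8.22%, against 0.517% of 12386 over all genes tested. The difference between the groups was not tested, and the NCD and JQF members are 4 and 6 cells. Cxcl2, a neutrophil chemokine, was at 2180 CPM in NCD members against 4704 CPM in Cxcl9-zero cells and at 2365 against 3320 CPM in JQF, but at 2378 against 546 and 1239 against 905 CPM in HFD. In NCD 96.4% of the members' Cxcl2 UMIs came from 1 cell, and in HFD replicate 1 they came from 2 cells, 69.8% from 1. Ccl4 was at 1308 against 1867 CPM in NCD and 1207 against 2311 CPM in JQF, but at 2509 against 1543 and 2048 against 971 CPM in HFD, and 85.9% of the NCD members' UMIs came from 1 cell. Lyz2, the myeloid lysozyme, was at 4426 against 10809 CPM in NCD and 4392 against 8387 CPM in JQF, but at 5761 against 3500 and 4298 against 3792 CPM in HFD.

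The other 6 concern JQF alone. Acod1 was at 19.3 against 303 CPM there, from 2 UMIs, and at 204 against 31.6 and 341 against 135 CPM in HFD. S100a4 was at 57.9 against 730.2 CPM, S100a6 at 164 against 667 CPM, Ccr2 at 193 against 389 CPM and Lpl at 251 against 469.5 CPM in JQF, each higher in members in both HFD libraries. Apoe, the lipid carrier, was at 20918 against 14517 CPM in JQF and lower in members in HFD, at 10933 against 16594 and 13225 against 21747 CPM. A single cell held 86.5% of the JQF members' Apoe UMIs, 82.4% of their S100a6, 69.2% of their Lpl and 100% of their S100a4 UMIs. The neutrophil gene list summed to 38.6 CPM in JQF members and 647 CPM in JQF Cxcl9-zero cells, and its part in these values was not tested.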

How the results depend on the processing

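The share of members among macrophages stayed within its interval (NCD, JQF) or SD (HFD) under the C1q, doublet, quality, thinning and higher Cxcl9 alternatives, though NCD was 1.25% (1 cell) at 20 C1q UMIs. With at least 1 Cxcl9 UMI the HFD share was 5.66%. With Timd4, Spp1 and Gpnmb allowed the shares were 23.8% in NCD, 10.9% in HFD and 8.36% in JQF. As a share of all kept cells they were 0.0669%, 0.433% and 0.0703%. Without 1 HFD replicate the HFD share was 2.45 to 4.65%.

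The count of called genes was 34 with DESeq2 and 104 with no gene filter (50 of them lower in members). It was 1 without the library block (Gbp2, a given marker). In edgeR with depth-matched cells it was 0, where 86 genes had an unadjusted p under 0.05. Leaving out each library gave 4 to 7 calls, and the other alternatives 6 to 9. C3 was called in every alternative but the depth-matched (adjusted p = 0.360) and the unblocked one (0.101). Over the alternatives the adjusted p ran from 7.49e-07 to 0.501 for Cd40, 1.32e-08 to 0.667 for Slamf8 and 5.66e-11 to 0.999 for Cxcl10. Serpina3g passed no gene filter with depth-matched cells or without HFD replicate 2.

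None of the 6 called genes changed direction. The cells free of dendritic cell UMIs included only 1 NCD member. With cells free of dendritic cell UMIs (no JQF members, median of all genes -0.13) the log2 fold change turned for Jak1 (-0.085), Ifi27l2a (0.29), Ifih1 (-0.19), Rsad2 (-1.85), Cxcl2 (-0.18), Ccl4 (-0.46), Cd74 (-0.043), H2-Aa (-0.23), H2-Eb1 (-0.16), H2-Ab1 (-0.0095), B2m (-0.042), H2-D1 (-0.033), H2-K1 (-0.25) and Nr1h3 (-0.45). With depth-matched cells it turned for Ccl4 (-0.17), H2-D1 (-0.039), Lyz2 (0.0026) and Apoe (0.32). With no gene filter (median of all genes -0.22) it turned for Rsad2 (-0.026) and H2-D1 (-0.0050), and without the block for Cxcl2 (-0.27). At 5 Cxcl9 UMIs it turned for Rsad2 (-0.034) and Id3 (0.016), and without doublets for Rsad2 (-0.38) and Id3 (0.049). Leaving out each library gave ranges that crossed 0 for Rsad2 (-0.14 to 0.15), Cxcl2 (-0.39 to 0.73), Ccl4 (-0.25 to 0.42), H2-D1 (-0.013 to 0.26), Nr1h3 (-0.025 to 0.31), Lyz2 (-0.70 to 0.053), S100a4 (-0.19 to 1.23), S100a6 (-0.28 to 0.75) and Lgals3 (-0.63 to 0.12). The cause was not tested.

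The planned tests of HFD against NCD, JQF against HFD and their interaction, with their alternatives, were not run because NCD and JQF held 4 and 6 members. The labels give no pairing of mice between groups, so no paired comparison of the groups was possible. The number of members and the single NCD and JQF libraries limit all statements.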
